A study of Mus musculus with 4 samples.

Results

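The inner retina of the mouse eye was followed through 32 marker genes of bipolar, amacrine, horizontal and ganglion cells, of synapses and of Müller glia, the support cells of the retina. Each gene was represented by the probe set (a group of array probes for a transcript) that had the highest mean log2 signal among those with a Present (detected) call on 2 or more of the 4 arrays. Of the 32 genes, 31 had a probe set named by that symbol alone and 30 passed the detection rule, out of 13148 genes tested on the arrays. Grm6, the glutamate receptor of ON bipolar cells, had no probe set with its symbol alone and was not analysed here. Vsx1, a transcription factor of cone bipolar cells, was Present on 1 array only and was not tested.

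The RNA came from whole eyes that held an injected tumour, 2 from splenectomized mice and 2 from intact mice that had no surgery. All 4 were C57BL/6 mice, of a stock of males and females older than 7 weeks, and into the anterior chamber of each, the space between cornea and iris, 10000 E.G7-OVA cells with luciferase had been injected. This line is a T cell lymphoma of the mouse that carries the ovalbumin gene of the chicken. The eyes were removed 15 days after the injection. Every eye in both groups carried tumour cells, so the values below compare tumour-bearing eyes with each other and not with a healthy retina. The labels name each array as a separate sample of its group but do not number the animals, and p-values measure only the spread between these samples.

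In the retina, photoreceptors release glutamate onto bipolar cells, which pass the signal to ganglion cells, whose axons form the optic nerve. Horizontal and amacrine cells shape this flow sideways, mostly with the inhibitory transmitters GABA and glycine. Müller glia span the whole retina, take up glutamate and potassium, convert glutamate to glutamine and take part in recycling visual pigment, and after injury they raise the filament protein GFAP.

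The array of intact replicate 1 stood apart from the other 3 for these genes. It had the lowest signal of the 4 arrays for 28 of the 30 genes, against 42.1% of all genes tested. Its share of probe sets called Present was 53.2%, against 56.2% to 58.6% on the other arrays. Intact replicate 2 exceeded intact replicate 1 by a median of 1.84 on the log2 scale (3.57-fold) over the 30 genes, against a median of 0.06 over all genes. The splenectomized arrays lay closer together, with replicate 1 above replicate 2 by a median of 0.61 (1.53-fold), against 0.04 over all genes. The comparisons over the members are therefore given with and without intact replicate 1. The same was done for the lists of other inner retina, Müller glia, glial reactivity, photoreceptor, pigment and lens genes. In RNA of a whole eye, fewer cells of a type and less RNA per cell cannot be told apart.

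**Figure D1:**
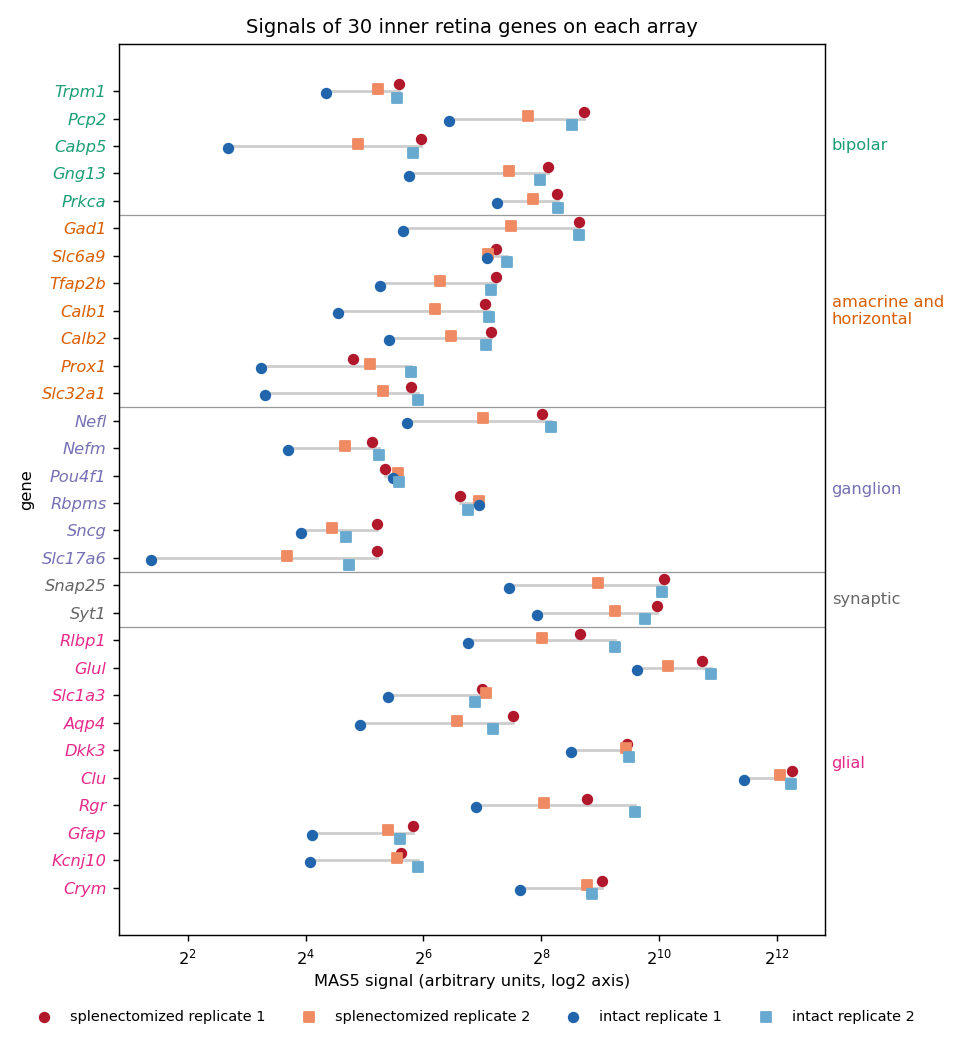
Deposited signal (arbitrary units, log2 axis) of each of the 30 tested genes on the 4 arrays, with genes grouped by cell class and the splenectomized arrays drawn in red and orange above the intact arrays in dark and light blue. The dark blue points of intact replicate 1 lie lowest for 28 genes, and the light blue squares of intact replicate 2 lie highest for 14.

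Bipolar cell genes were detected for 5 of 7 listed members, and all 5 had their lowest signal in intact replicate 1. Pcp2, a regulator of G protein signalling found in bipolar cells and in Purkinje cells of the cerebellum, had signals of 422 and 219 in splenectomized eyes, against 87.0 and 368 in intact eyes. The splenectomized values lay at both sides of the higher intact value, so the groups overlapped. Gng13, the gamma subunit of the G protein that couples the glutamate receptor of ON bipolar cells, had 278 and 176 in splenectomized eyes, against 54.3 and 252 in intact eyes. Trpm1, the cation channel at the end of that cascade, had 47.9 and 37.7 in splenectomized eyes, against 20.4 and 46.8 in intact eyes. Intact replicate 2 was thus within the range of the splenectomized eyes for both genes of the cascade, and intact replicate 1 was below it.

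Cabp5, a calcium-binding protein of bipolar cells, had 62.5 and 29.5 in splenectomized eyes, against 6.4 and 56.7 in intact eyes, and was called Absent on the array with 6.4. Its difference within the intact pair was 8.86-fold and within the splenectomized pair 2.12-fold. Prkca, protein kinase C alpha and the usual marker of rod bipolar cells, had 310.3 and 232 in splenectomized eyes, against 153 and 314 in intact eyes. Of all bipolar members it had the smallest difference within the intact pair, at 2.05-fold. A further detected probe set of Prkca, chosen by no rule here, ran the other way, with 81.8 and 121 in splenectomized eyes, against 140.3 and 83.9 in intact eyes.

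The RefSeq promoter windows (GRCm38.p6) of the members were searched on both strands for the letters TAATCC. These letters are the core that the retinal factors CRX and OTX2 bind. The windows run from 250 bases before to 50 bases after a transcript start. At least 1 window was at hand for 22 of the 32 members, and 4 of their 32 windows held the letters, against 7.06% of all 32851 windows. The 4 belonged to Cabp5, Trpm1, Rgr and Gad1. The 250 bases before the start are shown for the 2 bipolar genes, with the matched letters in capitals. Cabp5 held the letters more than once. Trpm1 held them on the opposite strand, as did Gad1, which is not shown. Of the 2 windows of Trpm1, only the one shown matched. Such a match is a description of the letters and was not tested for binding.
Cabp5, chr7:13397905-13398154, plus strand: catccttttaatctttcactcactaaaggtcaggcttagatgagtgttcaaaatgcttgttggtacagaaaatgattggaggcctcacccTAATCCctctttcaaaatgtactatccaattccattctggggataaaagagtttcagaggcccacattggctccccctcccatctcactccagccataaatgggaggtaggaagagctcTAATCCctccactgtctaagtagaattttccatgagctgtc
Trpm1, chr7:64153585-64153834, plus strand: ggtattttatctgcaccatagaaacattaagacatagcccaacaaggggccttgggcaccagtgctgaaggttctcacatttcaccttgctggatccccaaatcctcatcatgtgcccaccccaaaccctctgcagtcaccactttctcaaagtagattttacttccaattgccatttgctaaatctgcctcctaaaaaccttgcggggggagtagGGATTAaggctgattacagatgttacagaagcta

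Amacrine and horizontal cell genes were detected for all 7 listed members, and all 7 were lowest in intact replicate 1. Gad1, which makes GABA, had 398 and 180.4 in splenectomized eyes, against 50.2 and 402 in intact eyes, and so differed 8.01-fold between the intact eyes. Slc32a1, which loads GABA and glycine into synaptic vesicles, had 55.6 and 39.7 in splenectomized eyes, against 9.9 and 60.3 in intact eyes. For both genes the intact pair enclosed the splenectomized pair.

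Calb1, the calcium-binding protein calbindin of horizontal and some amacrine cells, had 133 and 73.5 in splenectomized eyes, against 23.3 and 139 in intact eyes. Calb2, calretinin, had 143 and 88.2 in splenectomized eyes, against 42.9 and 135 in intact eyes, and was called Present on only 2 arrays. Tfap2b, a transcription factor of amacrine cells, had 150.0 and 78.2 in splenectomized eyes, against 38.3 and 142 in intact eyes. These 3 genes shared an order in which intact replicate 1 was lowest and splenectomized replicate 2 next. Prox1, a transcription factor of horizontal and AII amacrine cells, was the only gene of the class in which splenectomized replicate 2 exceeded replicate 1, with 28.1 and 34.1 in splenectomized eyes, against 9.5 and 55.3 in intact eyes.

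Slc6a9, the glycine transporter of glycinergic amacrine cells, varied little. It had 151 and 137 in splenectomized eyes, against 135 and 171 in intact eyes, and was called Absent on the array with 135. The intact eyes differed 1.26-fold in Slc6a9, against 3.14-fold to 8.01-fold in the other 6 genes of the class, although intact replicate 1 was again lowest. The Absent call limits what can be read from this small difference.

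All 6 listed ganglion cell genes were detected, and 4 of them were lowest in intact replicate 1 while Pou4f1 and Rbpms were not. Nefl, the light neurofilament subunit, had 259 and 129 in splenectomized eyes, against 52.6 and 287 in intact eyes. Nefm, the medium subunit, had 35.1 and 25.5 in splenectomized eyes, against 13.0 and 38.1 in intact eyes. Slc17a6, the vesicular glutamate transporter VGLUT2 of ganglion cells, had 37.1 and 12.9 in splenectomized eyes, against 2.6 and 26.7 in intact eyes. It showed the widest difference within the intact pair of all 30 genes, at 10.3-fold, and within the splenectomized pair, at 2.88-fold, at low signals and with an Absent call in intact replicate 1.

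Sncg, gamma-synuclein, had 37.1 and 21.8 in splenectomized eyes, against 15.1 and 25.7 in intact eyes, and differed 1.70-fold within each pair. Pou4f1, the transcription factor BRN3A, had 40.7 and 47.4 in splenectomized eyes, against 44.7 and 48.1 in intact eyes. Rbpms, an RNA-binding protein that marks ganglion cells in the retina, had 98.5 and 123 in splenectomized eyes, against 123 and 109 in intact eyes. On the probe sets used, splenectomized replicate 1, not intact replicate 1, was lowest in these last 2 genes, and no other tested member shared that. The 3 further detected probe sets of Rbpms had higher means in splenectomized eyes, with log2 fold changes of 0.22, 0.23 and 0.68, while the probe set used had -0.07. The other detected probe set of Pou4f1 had 14.6 and 14.5 in splenectomized eyes, against 13.2 and 9.7 in intact eyes. Its log2 fold change was 0.36, while the probe set used had -0.08. The direction of both genes thus depended on the probe set. Of the 15 members with over 1 detected probe set, 10 had log2 fold changes of a single sign.

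Both synaptic genes had the order of arrays seen for Pcp2. Snap25, a membrane-bound protein of vesicle fusion, had 1087 and 500.4 in splenectomized eyes, against 176 and 1066 in intact eyes. Syt1, the calcium sensor of transmitter release, had 998 and 610.0 in splenectomized eyes, against 243 and 871 in intact eyes. The higher eyes of the groups differed by less than either pair did within itself.

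All 10 glial genes were detected, and all were lowest in intact replicate 1. Glul, glutamine synthetase, had 1697 and 1142 in splenectomized eyes, against 791 and 1885 in intact eyes. Slc1a3, the glutamate transporter GLAST, had 128 and 135 in splenectomized eyes, against 42.0 and 117 in intact eyes. It was the only one of the 30 genes in which the groups did not overlap, against 21.7% of all genes that did so in the higher direction and 19.7% in the lower. The gap between the lower splenectomized and the higher intact value was small beside the 2.79-fold difference within the intact pair. Its other 2 detected probe sets overlapped between the groups, with 65.2 and 48.9 in splenectomized eyes, against 19.4 and 49.5 in intact eyes, for the first, and 72.8 and 40.0, against 25.3 and 77.4, for the other.

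Aqp4, the water channel, had 183 and 94.6 in splenectomized eyes, against 30.4 and 145 in intact eyes. Kcnj10, the potassium channel Kir4.1, had 49.0 and 47.2 in splenectomized eyes, against 16.9 and 60.2 in intact eyes. Both sit on the end feet and processes of Müller glia, and in both intact replicate 1 lay far below the other 3 eyes. Dkk3, a secreted glycoprotein, had 703 and 697 in splenectomized eyes, against 366 and 723 in intact eyes.

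Crym, mu-crystallin, a protein that binds thyroid hormone, had 521 and 440 in splenectomized eyes, against 201 and 465 in intact eyes. Clu, clusterin, a secreted chaperone made by many cell types, had 4933 and 4239 in splenectomized eyes, against 2795 and 4829 in intact eyes. Its difference within the intact pair, 1.73-fold, was the smallest of the glial genes, and 4 detected probe sets all had intact replicate 1 lowest.

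Gfap, the intermediate filament of astrocytes and reactive Müller glia, had 56.6 and 42.1 in splenectomized eyes, against 17.3 and 48.9 in intact eyes, with an Absent call in intact replicate 1. Relative to the mean of the other 9 glial genes on the same array, on the log2 scale and centred over the arrays, Gfap stood at 0.15 and 0.09 in splenectomized eyes, against -0.03 and -0.20 in intact eyes. This difference of 0.24 rests on low signals of a single probe set and has no test. The other detected probe set of Gfap had 14.0 and 17.6 in splenectomized eyes, against 10.5 and 21.3 in intact eyes.

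Rlbp1 and Rgr, which handle retinoids and are made by Müller glia and by the retinal pigment epithelium, were the glial genes that stood highest in intact replicate 2 relative to the rest. Rlbp1, which carries retinaldehyde, had 404 and 257 in splenectomized eyes, against 108 and 611 in intact eyes. Rgr, an opsin of the visual cycle, had 437 and 264 in splenectomized eyes, against 118 and 770.3 in intact eyes. Relative to the other 8 glial genes on the same array, the mean of this pair was 0.02 and -0.37 in splenectomized eyes, against -0.42 and 0.77 in intact eyes. The pair was picked after its values were seen, and this is a description. The 10 tested pigment epithelium and pigment cell markers had 8 genes highest in intact replicate 2, and the other 8 glial genes had 3, against 23.5% of all genes. Rgr is the glial member whose promoter window held TAATCC, shown in capitals in the 250 bases before the start.
Rgr, chr14:37049015-37049264, minus strand: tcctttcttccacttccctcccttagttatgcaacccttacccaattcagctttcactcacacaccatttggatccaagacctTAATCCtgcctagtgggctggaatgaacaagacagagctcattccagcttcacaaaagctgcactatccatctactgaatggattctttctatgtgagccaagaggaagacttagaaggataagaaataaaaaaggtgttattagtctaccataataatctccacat

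For the glia, the letters TTCNNNGAA, a core bound by STAT factors, were searched in the same windows, and since they read alike on both strands each site was counted once. They were present in 2 of the 32 member windows, those of Slc1a3 and Gfap, against 8.3% of all windows, with no overlap with TAATCC.

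Across the study's comparison, 27 of the 30 genes had higher mean log2 signals in splenectomized than in intact eyes, against 55.1% of all genes, and Slc6a9, Pou4f1 and Rbpms had lower ones. No member passed the threshold of 0.05 in limma after Benjamini-Hochberg adjustment over all genes, where 0.0% of all genes passed. The adjusted p of limma ranged from 0.649 for Slc1a3 to 0.947 for Rgr. At an unadjusted p under 0.05, 0 members were higher and 0 lower, against 6.66% and 2.31% of all genes. The median log2 fold change of the 30 was 0.57, against 0.05 over all genes. All 30 intervals at 95% included 0, and their half-widths ran from 0.53 to 3.17 on the log2 scale. For all 30 genes the difference within the intact pair was wider than the difference between the group means, which held for 62.9% of all genes. For 17 of them the difference within the splenectomized pair was wider too, and over all genes this difference was the wider for 5721 of 13148.

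The median log2 fold change was 0.76 for the 5 bipolar genes, 0.56 for the 7 amacrine and horizontal genes, 0.48 for the 6 ganglion genes, 0.77 for the 2 synaptic genes and 0.52 for the 10 glial genes. With the mean of the detected probe sets of each gene, the medians were 0.46, 0.53, 0.48, 0.79 and 0.47 in the same order. Pcp2, whose 0.76 was the bipolar median, was then at 0.37. On the probe sets used, Slc17a6 had the largest log2 fold change, at 1.39 ± 1.24 (SE, adjusted p of limma 0.731). Cabp5 came next at 1.17 ± 1.09 (SE, adjusted p of limma 0.739). Slc1a3, with the smallest adjusted p, had 0.90 ± 0.507 (SE), an interval of -0.40 to 2.20 and means of 131 ± 4.81 in splenectomized and 79.5 ± 53.1 in intact eyes (SD, n = 2 each).

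The direction rested on intact replicate 1. It had 7 Absent calls among the 30 genes, against 1 in splenectomized replicate 2 and 0 on the other arrays. Without it, 4 of the 30 genes were higher and 26 lower in splenectomized eyes, and the median log2 fold change was -0.27, against -0.04 over all genes. The 4 higher genes were Slc1a3, Sncg, Crym and Rbpms, at 0.16, 0.15, 0.04 and 0.02. The lowest were Rgr at -1.18, Rlbp1 at -0.92, Prox1 at -0.84 and Nefl at -0.65. Without intact replicate 2 the median was 1.51, against 0.10 over all genes. Fits of 3 arrays take their spread from the remaining pair and assume that the lone eye varies like it. Under that assumption 24 of the 30 genes passed as higher without intact replicate 2, and 0 as lower, where 15.9% of all genes passed as higher and 5.64% as lower. Rgr passed as lower without intact replicate 1 (adjusted p of limma 0.042), and 0 genes of the 30 as higher, where 0.228% of all genes passed as lower and 1.83% as higher. The calls of the 2 fits thus went in opposite directions.

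**Figure D2:**
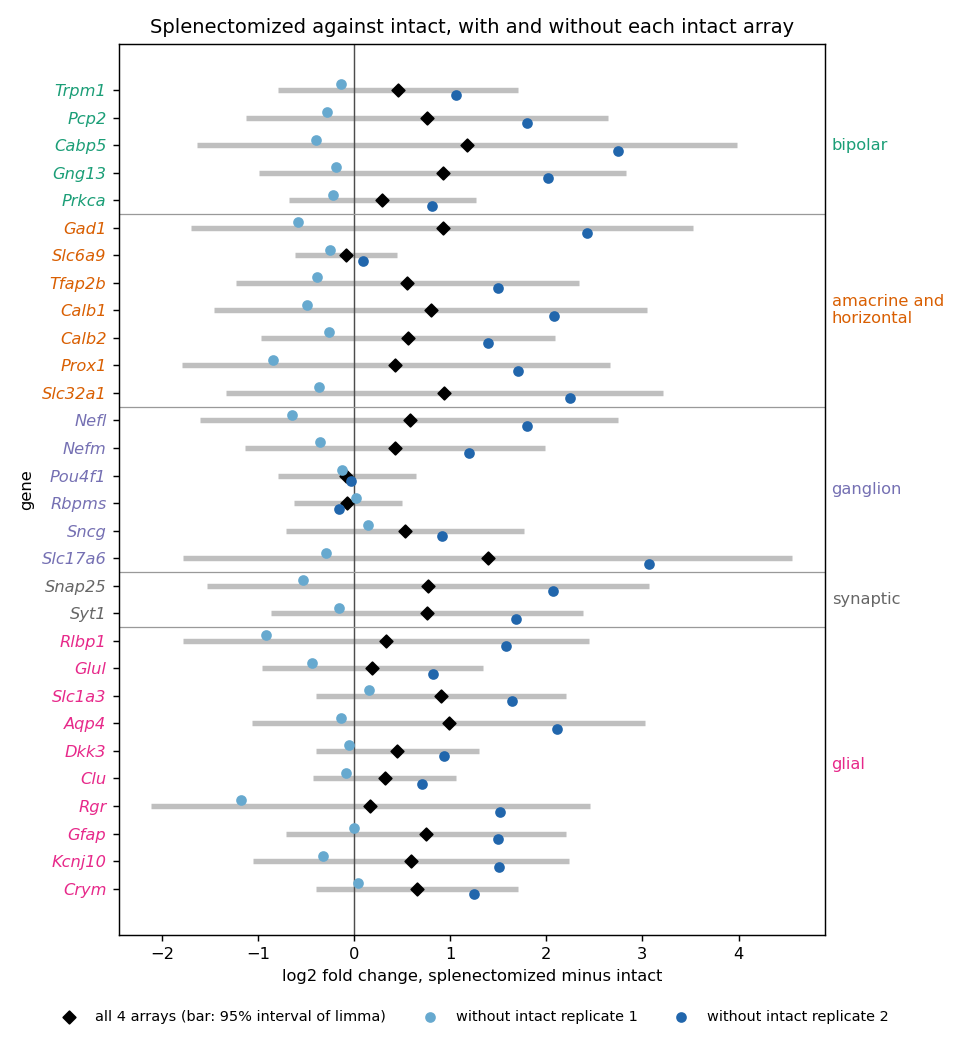
Log2 fold change (splenectomized minus intact) of each of the 30 tested genes with all 4 arrays (black diamonds, grey bars for the 95% interval of limma), without intact replicate 1 (light blue) and without intact replicate 2 (dark blue). All bars cross 0, and without intact replicate 1 the points of 26 genes lie below 0.

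The classes moved together from array to array. A list score was computed for each array by centring each gene's log2 signals on 0 over the 4 arrays and averaging the genes of the list. The score of the 20 neuronal genes was 0.61 and -0.01 in splenectomized eyes, against -1.22 and 0.62 in intact eyes. The score of the 10 glial genes was 0.46 and 0.08 in splenectomized eyes, against -1.09 and 0.56 in intact eyes. Their difference, glial minus neuronal, stayed within a range of 0.29 over the 4 arrays, at -0.16 and 0.09 in splenectomized eyes, against 0.13 and -0.06 in intact eyes. The group means of that difference were -0.03 ± 0.17 and 0.03 ± 0.13 in splenectomized and intact eyes (SD, n = 2 each), so the shift between groups was smaller than the spread within either pair.

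Photoreceptor, lens and pigment markers were likewise lowest in intact replicate 1, for all genes tested of the 3 lists. Photoreceptor markers, 15 tested of 17, scored 0.63 and -0.08 in splenectomized eyes, against -1.43 and 0.88 in intact eyes. All 12 lens markers were tested and scored 0.55 and 0.11 in splenectomized eyes, against -1.18 and 0.51 in intact eyes, and the 10 tested pigment markers 0.47 and 0.04, against -1.41 and 0.91. The median log2 fold change was 0.58 for photoreceptor, 0.44 for pigment and 0.69 for lens markers. Without intact replicate 1 these medians were -0.61, -0.61 and -0.13. The inner retina score minus the photoreceptor score was -0.07 and 0.10 in splenectomized eyes, against 0.25 and -0.28 in intact eyes. The group difference of 0.03 was well under the SD of 0.38 in the intact pair. Among photoreceptor markers 13 of 15 were highest in intact replicate 2, as were 8 of 10 pigment markers, 3 of 12 lens markers and 14 of the 30 inner retina genes. Over all genes the share was 23.5%. The photoreceptor and pigment genes with the smallest p, given next, belonged to the few of their lists that were highest in splenectomized replicate 1. The cone phosphodiesterase gene Pde6c had 125 and 69.6 in splenectomized eyes, against 22.5 and 104 in intact eyes, and Pde6h, its inhibitory subunit, had 420.4 and 243, against 102 and 395. Mlana, a melanosome gene, had 493 and 338 in splenectomized eyes, against 113 and 476 in intact eyes, and Dct, a melanin enzyme, 1342 and 912, against 316 and 1333. The lens crystallin gene Cryba1 had 6465 and 5581 in splenectomized eyes, against 2455 and 5925 in intact eyes, and Cryab 7131 and 5779, against 2569 and 6531.

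**Figure D3:**
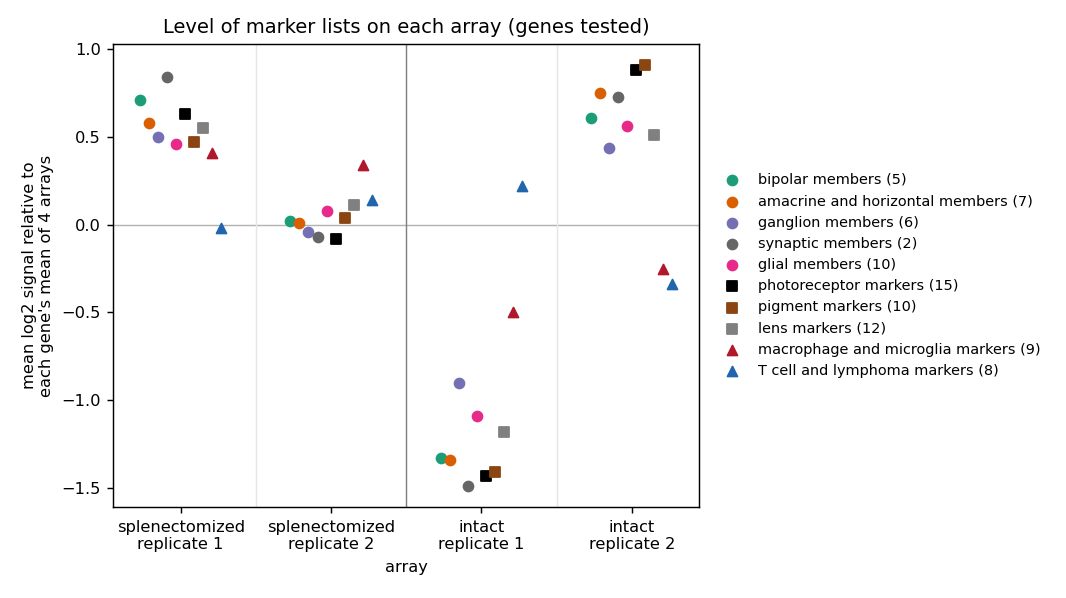
Mean log2 signal relative to each gene's mean of 4 arrays (vertical axis) for the inner retina classes (circles), other eye tissue markers (squares) and immune cell markers (triangles) on each array, with the number of genes in brackets and the points set side by side for visibility. The inner retina classes lie between -0.90 and -1.49 in intact replicate 1, beside photoreceptor, pigment and lens markers, while the T cell and lymphoma markers lie at 0.22 there.

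Levels of other cell types' markers are given beside these values, and their part in the result was not tested. T cell and lymphoma markers, 8 tested of 10, summed to 7709 and 9087 in splenectomized eyes, against 10830.0 and 8190.0 in intact eyes, so the sum was highest in intact replicate 1. Zap70, a signalling kinase of T cells, was also highest there, at 263 and 331 in splenectomized eyes, against 501 and 345 in intact eyes, while Cd2, an adhesion receptor, was higher in both splenectomized eyes, at 130.3 and 140.2, against 44.0 and 34.8. The 8 skeletal muscle markers summed to 827 and 773 in splenectomized eyes, against 514 and 1496 in intact eyes, with Ckm at 182 and 184, against 203 and 273, and Myh4 at 32.6 and 12.2, against 11.7 and 185. The 7 markers of corneal and conjunctival epithelium summed to 12467 and 11293 in splenectomized eyes, against 7764 and 12413 in intact eyes. Krt13 had 1569 and 1681, against 842 and 1169, and Krt14 4010.4 and 3600, against 2544 and 3148. Groups did not overlap for these 2 and overlapped for the other 5, and 4 of the 7 were highest in intact replicate 2. The 2 with lower means in splenectomized eyes are named after their values were seen. Krt12 had 843 and 720.1 in splenectomized eyes, against 407 and 1648 in intact eyes, and Aldh3a1 277 and 218, against 117 and 594. The sums of the macrophage and microglia markers, 9 tested of 10, separated the groups instead, at 11313 and 11502 in splenectomized eyes, against 6044 and 5925 in intact eyes. Groups did not overlap for 7 of the 9, all higher in splenectomized eyes, against 21.7% of all genes. The other 2 overlapped and are named after their values were seen. Cx3cr1 had 88.9 and 58.6 in splenectomized eyes, against 37.8 and 71.9 in intact eyes, and P2ry12 14.6 and 17.6, against 10.8 and 22.8. Mpeg1 had 2699 and 2812 in splenectomized eyes, against 1292 and 1304 in intact eyes, and Cd68 894 and 934, against 456 and 435 (adjusted p of limma 0.158 for each). Of the oligodendrocyte and Schwann cell markers only Mbp was tested, at 205 and 176 in splenectomized eyes, against 214 and 214 in intact eyes, while Mog, Mag and Mobp were not Present on 2 arrays. Of 4 astrocyte markers 3 were tested. Groups did not overlap for 2 of them, both higher, against 21.7% of all genes. Aldh1l1 had 71.9 and 52.5 in splenectomized eyes, against 36.1 and 42.6 in intact eyes. Gja1, a gap junction gene of astrocytes and many other cells, had 3333 and 3013, against 2595 and 2676. S100b overlapped, at 114 and 65.9 in splenectomized eyes, against 29.4 and 135 in intact eyes, and is named after its values were seen.

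The other genes of these cells were read from longer lists. The partners of the glutamate receptor cascade of ON bipolar cells had 6 of 8 genes tested, all 6 higher in splenectomized eyes and all 6 lowest in intact replicate 1. Their log2 fold changes had a median of 0.48, or -0.32 without that array. Rgs11, which speeds the off switch of the G protein, had 29.6 and 33.6 in splenectomized eyes, against 8.1 and 32.7 in intact eyes. Gnb3, the beta subunit, had 425 and 283 in splenectomized eyes, against 107 and 409 in intact eyes. Neither gene nor any other of the list passed the threshold, and both pairs overlapped. Among other bipolar genes, 5 of 10 were tested and all 5 were higher, with a median log2 fold change of 0.55. Without intact replicate 1 all 5 were lower, with a median of -0.46. Car8 had 155 and 91.1 in splenectomized eyes, against 34.3 and 144 in intact eyes. Tacr3, a tachykinin receptor, had 98.7 and 63.6 in splenectomized eyes, against 27.5 and 106 in intact eyes.

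Other amacrine and horizontal genes had 8 of 19 genes tested, all 8 higher in splenectomized eyes and none past the threshold, with a median of 0.80 for the log2 fold change, or -0.23 without intact replicate 1. Vip, a neuropeptide of amacrine cells, had 38.8 and 21.7 in splenectomized eyes, against 8.4 and 26.0 in intact eyes. Tfap2a, a transcription factor, had 115 and 72.3 in splenectomized eyes, against 22.2 and 91.9 in intact eyes. Other synaptic genes had 15 of 22 tested, all 15 higher and none past the threshold, and 14 of them were lowest in intact replicate 1. Their median log2 fold change was 0.59, and without that array it was -0.31, with 2 higher and 13 lower. Vamp2, a vesicle fusion protein, had 376 and 247 in splenectomized eyes, against 131 and 254 in intact eyes, and Syn2, a synapsin, 24.7 and 15.1, against 5.1 and 19.9.

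Other ganglion cell genes did not share the pattern as a list. Of 14, 9 were tested, 5 higher and 4 lower, and 2 were lowest in intact replicate 1. The median of their log2 fold changes was 0.01, and 0.05 without intact replicate 1, and none passed the threshold. Nefh, the heavy neurofilament subunit, ran against Nefl and Nefm, with 506 and 675 in splenectomized eyes, against 1025 and 762 in intact eyes. Its log2 fold change was -0.60 (SE 0.222, adjusted p of limma 0.542), and its signal was highest in intact replicate 1, where Nefl was lowest. Elavl4, a neuronal RNA-binding protein, had 89.4 and 93.2 in splenectomized eyes, against 162 and 112 in intact eyes. Both genes had groups that did not overlap. Isl2, a transcription factor of ganglion cells, did not overlap either but was higher, with 36.5 and 32.1 in splenectomized eyes, against 21.7 and 19.7 in intact eyes. It is named after its values were seen. Rbfox3 and Gap43 were the genes lowest in intact replicate 1, and both are also named after their values were seen. Rbfox3 had the largest log2 fold change of the list and did share the pattern. It had 78.9 and 35.3 in splenectomized eyes, against 10.1 and 39.7 in intact eyes, and its groups overlapped. Of the 9 genes, groups without overlap were thus seen for 1 in the higher and 2 in the lower direction, against 21.7% and 19.7% of all genes.

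Other Müller glia genes, which several other cell types also make, had 17 of 18 genes tested, 15 higher and 2 lower, with a median of 0.40 for the log2 fold change, or -0.35 without intact replicate 1. Apoe, the lipid carrier made by Müller glia and by macrophages, had 2612 and 2526 in splenectomized eyes, against 1133 and 1823 in intact eyes, with no overlap (adjusted p of limma 0.47). Cav1, caveolin, had 886 and 792 in splenectomized eyes, against 562 and 721 in intact eyes, also with no overlap. Groups did not overlap for 3 of the 17 genes, all higher, against 21.7% of all genes in that direction, and overlapped for the other 14. Intact replicate 1 was lowest for 13 of the 17, against 42.1% of all genes.

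Glial reactivity genes, many of which leukocytes and epithelia also express, had 12 of 14 tested, 11 higher and 1 lower, with a median of 0.56 for the log2 fold change, or 0.19 without intact replicate 1. Their groups did not overlap for 6 genes, all higher in splenectomized eyes, against 21.7% of all genes in that direction. At an unadjusted p under 0.05 in limma 5 genes were higher, against 6.66% of all genes, while 0 passed the adjusted threshold. Socs3, an inhibitor of cytokine signalling through STAT factors, had 2041 and 1805 in splenectomized eyes, against 1347 and 1271 in intact eyes, at a log2 fold change of 0.55 (SE 0.134, adjusted p of limma 0.36) that was 0.59 without intact replicate 1. Lcn2, an iron-binding protein of the acute phase, had 4473 and 4292 in splenectomized eyes, against 2041 and 3058 in intact eyes. Gfap overlapped between the groups, and its log2 fold change of 0.75 was 0.00 without intact replicate 1. The list score of the glial reactivity genes was 0.39 and 0.16 in splenectomized eyes, against -0.53 and -0.03 in intact eyes. The macrophage sums given above were also higher in both splenectomized eyes, but were slightly lower in intact replicate 2 than in intact replicate 1. The part of macrophages was not tested.

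Differences within the pairs were also counted against a fixed fold. Intact replicate 2 was over 2-fold above intact replicate 1 for 24 of the 30 genes, against 12.4% of all genes, and over 4-fold above for 13. The splenectomized arrays were over 2-fold apart for 5, namely Cabp5, Gad1, Nefl, Slc17a6 and Snap25. Splenectomized replicate 1 exceeded replicate 2 for 26 genes, against 55.5% of all genes. Of the 23 detected probe sets of members that were not used, 18 were also lowest in intact replicate 1.

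**Figure D4:**
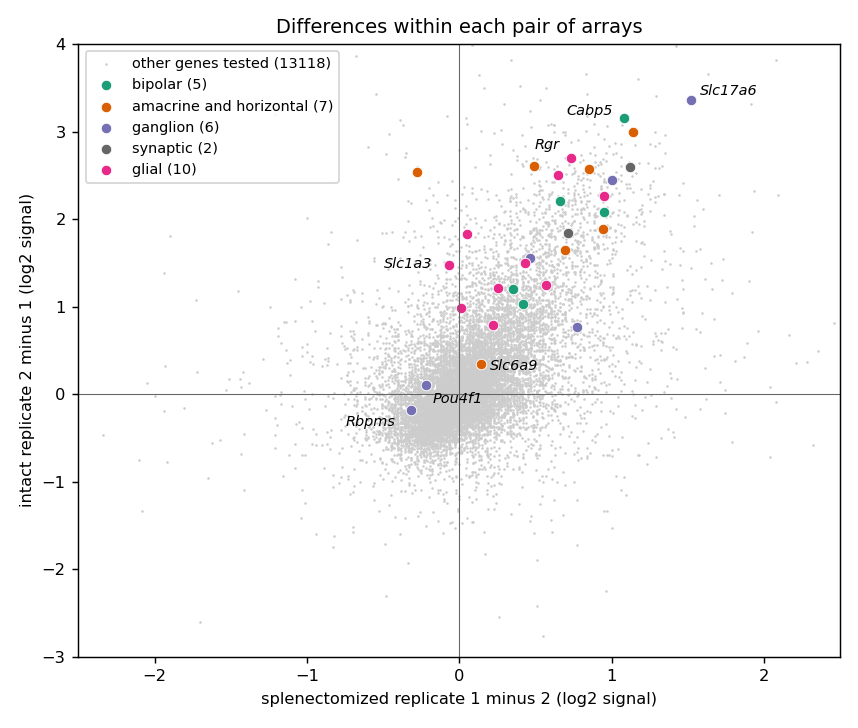
Difference between the splenectomized arrays (horizontal, replicate 1 minus 2) and between the intact arrays (vertical, replicate 2 minus 1) on the log2 scale for the 30 tested inner retina genes (coloured by class) and 13118 other genes (grey), of which 64 lie outside the axes. Most members lie at the upper right, up to Slc17a6 at 3.36 for the intact pair, while Rbpms and Pou4f1 lie near the origin.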

How the data were processed

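Total RNA of 4 eyes was measured on 4 Affymetrix arrays with 45101 probe sets. Per the labels, a 3'-IVT Express kit gave the biotinylated RNA. The authors deposited signal intensities on a linear scale with Present or Absent calls, for which the submitters' processing notes name GCOS 1.4 and MAS5. Each array has a mean of 150 after trimming 2% at each end, so a signal is a level relative to the other genes of its array. The number of arrays limits the precision. Signals were raised to at least 0.1 and taken to log2, with no other normalization.

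Probe sets with 1 symbol in the platform annotation were used (34945, of which 34741 matched a RefSeq table of GRCm38.p6 by Entrez identifier and 0 changed symbol). Splenectomized and intact arrays were compared in limma 3.58.1 (under R 4.3.3, with the eBayes prior following mean intensity and 2 residual degrees of freedom) over 13148 genes, two-sided, with Benjamini-Hochberg adjustment. The fit was tested on simulated data. No covariate was used. Figures were drawn with matplotlib 3.10.9. The alternatives were other scalings, a pseudocount of 10, other detection filters, other probe set rules, no trend, a replicate block and leaving out each array.

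The members and gene lists were chosen with earlier results of these data known. Every member is named, and of each other list the 2 tested genes with the smallest p, unless the text says otherwise. The share of p-values under the threshold is given over all genes beside that of the members.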

Additional observations from a re-analysis of the deposited data

How the results depend on the processing

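The count of 0 members past the adjusted threshold in limma and the signs of the class medians were the same under each scaling, filter, probe set rule and variance model tried. The unadjusted count was also 0, except with the crossed numbers described below. The counts differed when an intact array was left out, and the signs of the class medians differed only without intact replicate 1. The causes were not tested. With 1 array left out, the median log2 fold change ran from -0.27 (without intact replicate 1) to 1.51 (without intact replicate 2) for the members tested, -0.22 to 1.80 for bipolar, -0.39 to 1.70 for amacrine and horizontal, -0.21 to 1.06 for ganglion, -0.34 to 1.88 for synaptic and -0.11 to 1.50 for glial members. The glial minus neuronal score (-0.07) ran from -0.19 to 0.05 and the member minus photoreceptor score (0.03) from -0.24 to 0.30. Counts past the adjusted threshold ran from 0 to 24 members and 0 to 2830 genes (271 without intact replicate 1), and at an unadjusted p under 0.05 from 0 to 26 members and 273 to 4630 genes, where 1180 genes passed with all arrays. Leaving out each array in turn, the log2 fold change ranged as follows, with a change of sign, for Trpm1 -0.14 to 1.06, Pcp2 -0.28 to 1.80, Cabp5 -0.40 to 2.75, Gng13 -0.19 to 2.02, Prkca -0.22 to 0.81, Gad1 -0.58 to 2.42, Slc6a9 -0.25 to 0.09. The ranges were, for Tfap2b -0.39 to 1.50, Calb1 -0.49 to 2.08, Calb2 -0.26 to 1.39, Prox1 -0.84 to 1.70, Slc32a1 -0.36 to 2.25, Nefl -0.65 to 1.80, Nefm -0.35 to 1.20. The ranges were, for Pou4f1 -0.19 to 0.03, Rbpms -0.23 to 0.09, Slc17a6 -0.29 to 3.07, Snap25 -0.53 to 2.07, Syt1 -0.16 to 1.68, Rlbp1 -0.92 to 1.58, Glul -0.44 to 0.82. The ranges were, for Aqp4 -0.14 to 2.11, Dkk3 -0.05 to 0.94, Clu -0.08 to 0.71, Rgr -1.18 to 1.52, Kcnj10 -0.32 to 1.51. The scores also changed sign with a pseudocount of 10 (glial minus neuronal 0.01, member minus photoreceptor -0.04), and the member minus photoreceptor score also did with genes Present on all 4 arrays (-0.02) and the mean of probe sets (-0.05). The 27 higher and 3 lower members were 27 and 3 under each scaling, and 29 and 1 with the mean of probe sets, where Pou4f1 was at 0.14 and Rbpms was at 0.27. Quantile normalization called 1 gene, which was not a member. The filter for Present on all 4 arrays left 23 members and the filter on cross-hybridizing probe sets 25.

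Samples of 1 number did not deviate together (correlation over genes -0.443), and the labels give no pairing. With the replicate block 546 genes had an unadjusted p under 0.05, and 0 members passed. With crossed numbers, an alternative added after seeing the data, 99 genes passed the adjusted threshold, and 2402 genes and 5 members had an unadjusted p under 0.05. With 2 arrays a group, signals near the Absent range, such as those of Cabp5 and Slc17a6, limit what can be read from their folds.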
